A study of Mus musculus with 4 samples.

Results

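The 4 rows described here are Rn45s, Rn28s and Rn18s, the nuclear ribosomal RNA genes of the rat for the 45S precursor and for the mature 28S and 18S RNAs, and LOC257642, a row described in the table as a protein that binds the rRNA promoter. They were selected by name from the 42977 rows of a gene table, and the names were picked from earlier results on the same libraries: these 4 rows had among the highest counts in the table, and LOC257642 stood out in the comparison of the groups. Their levels and their differences between the groups are therefore given as a description, with no test of the rows themselves.

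RNA was sequenced from exosomes, small vesicles released by cells, obtained from the conditioned medium of mesenchymal stem cells (MSCs). The MSCs came from the bone marrow of male SD rats 6 to 8 weeks old and were used at passages 3 to 4, although the samples are registered as mouse. The 2 MSC-Exo libraries came from MSCs given DMSO, the solvent, and the 2 MSCATV-Exo libraries from MSCs given 1 µmol/L atorvastatin (ATV), a drug that blocks cholesterol synthesis, in exosome-free medium. The pretreatment lasted 24 h by the sample labels and 48 h by the treatment protocol. Cells of 10 dishes are described for an exosome preparation, and the labels do not say whether the libraries within a group came from different animals or cultures. Every SD below therefore measures the spread between these libraries, which may be technical. The SE and p-value of a fit rest on the same libraries but draw also on the spread of other genes. Neither measures the spread of its own row alone. Values of the 4 libraries are given in the order MSC-Exo replicate 1, MSC-Exo replicate 2, MSCATV-Exo replicate 1, MSCATV-Exo replicate 2, with the word "against" between the groups.

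Ribosomal RNA (rRNA) is the structural and catalytic core of the ribosome. RNA polymerase I copies repeated rDNA genes into a 45S precursor, and cleavage removes its spacers to leave 18S rRNA for the small subunit and 5.8S and 28S rRNA for the large one, while 5S rRNA is made apart from them by RNA polymerase III. Each ribosome holds 18S and 28S rRNA in equal copy. Most of the mass of cellular RNA is rRNA, and fragments of it are commonly found in RNA from vesicles. Whether poly(A) selection or rRNA depletion was used here is not given in the sources used here, and how far the libraries keep the rRNA level of the vesicles was not tested.

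The positions of the rows, on the rat assembly rn6 (Rnor_6.0), show that 3 of the 4 share reads. Rn45s lies on chromosome 14 at 46643222 to 46655563 on the plus strand. Rn18s takes its first 1872 bases, at 46643222 to 46645093, and Rn28s its end, at 46647095 to 46655563. The 5.8S row, Rn5-8s, lies between them at 46646165 to 46646320. Internal transcribed spacer 1 (ITS1, 1071 bases) then fills the gap between 18S and 5.8S, and ITS2 (774 bases) the gap between 5.8S and 28S. Rn28s and Rn45s each have a deposited length 3661 bases shorter than their span, so a stretch of the assembly within 28S is left out of the counted length. With the lengths of 1872, 156 and 4808 bases for 18S, 5.8S and 28S, these parts and the 2 spacers add to 8681 bases, which is the deposited length of Rn45s. The row named 45S therefore holds no external spacer and consists of 18S, ITS1, 5.8S, ITS2 and 28S alone.

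The counts follow the same arithmetic. In MSC-Exo replicate 1, Rn28s had 809224 counts, Rn18s 70450 and Rn5-8s 116, while Rn45s had 882111. The 3 mature parts leave 2321 counts of Rn45s for its spacers. Reads of 18S, 5.8S and 28S were thus counted in their own row and again in Rn45s, and the shares of these rows cannot be added. LOC257642 lies elsewhere, on chromosome 6 at 30638801 to 30639289 on the minus strand. It is annotated as protein-coding, has a length of 488 bases, and overlaps no other row.

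Summed over all rows, the libraries held 5350295 and 5355098 against 5947020 and 5598378 counts. Of 11 MSC markers found in the table, 10 had counts in every library and Col1a2 stood at 0 in every library. The summed level of these MSC markers was 109.7 to 132.5 RPKM (reads per kilobase of length, scaled to the library's summed gene counts) in MSC-Exo and 100.2 to 131.7 in MSCATV-Exo. For 9 leukocyte markers the sum was 40.6 to 49.7 RPKM in MSC-Exo and 31.2 to 34.5 in MSCATV-Exo, for 4 endothelial markers 22.9 to 23.4 and 16.2 to 17.7, and for 5 erythroid markers 24.0 to 29.2 and 18.5 to 23.0, with none of these 18 genes at 0 in every library. The part of these differences in the results below was not tested. Because the counts give shares of a library, more rRNA per vesicle, more vesicles rich in rRNA and less of other RNA cannot be told apart.

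Rn45s was the row with the most counts in every library and took 16.5% and 16.4% of a library's gene counts in the MSC-Exo pair against 19.1% and 16.7% in the MSCATV-Exo pair. The shares of 3 libraries lay between 16.4% and 16.7%, and MSCATV-Exo replicate 1 stood above them. Rn28s, which makes up most of Rn45s, came next with 15.1% and 15.0% against 17.5% and 15.3%. Its pattern was that of Rn45s, with which it shares its reads.

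Rn18s took a far smaller share, 1.32% and 1.31% against 1.60% and 1.33%. The same library, MSCATV-Exo replicate 1, was again the one set apart. LOC257642 ranked 3 by counts in every library, with 4.19% and 4.65% against 5.11% and 5.31%. Unlike the rRNA rows it was raised in both MSCATV-Exo libraries alike, and its lowest library was MSC-Exo replicate 1.

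**Figure D1:**
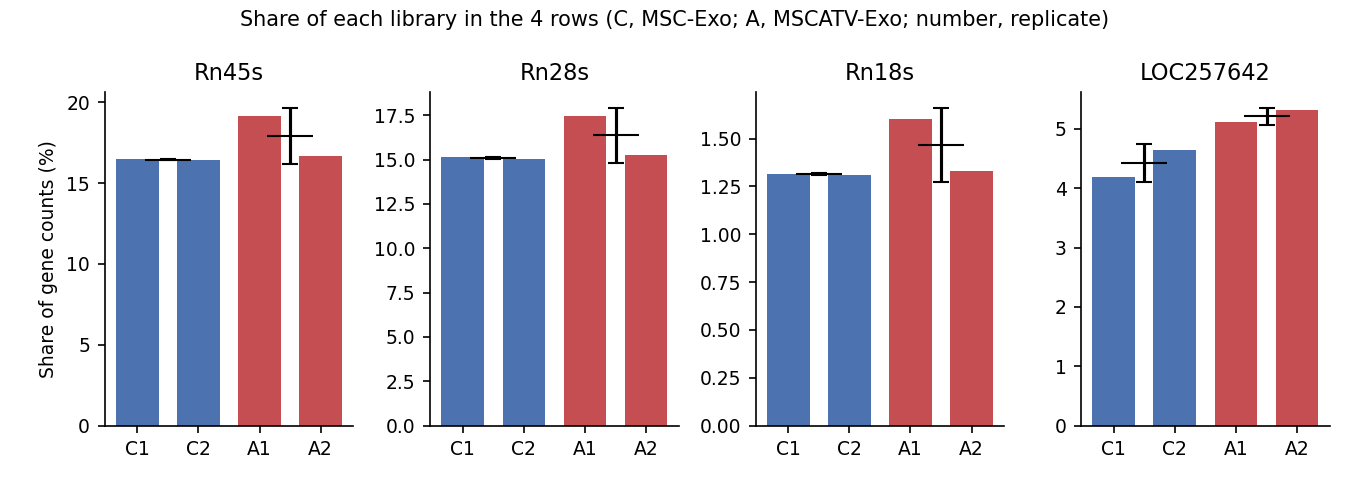
Share of all gene counts (percent, y axis from 0) in Rn45s, Rn28s, Rn18s and LOC257642 for each library, with MSC-Exo in blue (C1, C2) and MSCATV-Exo in red (A1, A2); the black marks give the mean and SD of each group (n = 2). For the 3 rRNA rows MSCATV-Exo replicate 1 stands above the 3 other libraries (19.1% against 16.4% to 16.7% for Rn45s), while both MSCATV-Exo libraries are high for LOC257642.

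Per length the order was different. LOC257642 ranked first of all rows in every library, at 85945 and 95318 RPKM for MSC-Exo against 104749 and 108871 for MSCATV-Exo. Rn28s was second in every library, with 31458 and 31298 RPKM against 36320 and 31756. Rn45s had rank 3 or 4, at 18913 to 22044 RPKM, and Rn18s rank 5, at 7006 to 8565 RPKM. LOC257642 alone held 20.5% to 24.8% of the summed RPKM of a library on 488 bases. The median protein-coding gene stood at 4.12 to 4.74 RPKM in the same libraries.

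After scaling with the factors of edgeR, the mean level of Rn45s was 158758 ± 1193 CPM (counts scaled to a common library total; SD, n = 2) for MSC-Exo against 186344 ± 29351 for MSCATV-Exo. Its log2 fold change, MSCATV-Exo over MSC-Exo, was 0.23 ± 0.07 (SE derived from the F statistic of the fit). DESeq2, another count model, gave 0.23 with a larger SE of 0.16. That SE is the model's own and is formed in another way. The SD of the MSCATV-Exo libraries exceeded the difference between the group means. Rn28s went from 145573 ± 999 to 170256 ± 26482 CPM (log2 fold change 0.23 ± 0.07, SE), and Rn18s from 12680 ± 96.5 to 15269 ± 2945 (0.27 ± 0.10, SE). For these 2 rows too the SD within MSCATV-Exo was larger than the difference of the means.

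Without MSCATV-Exo replicate 1 the log2 fold changes fell to 0.06 for Rn45s, 0.06 for Rn28s and 0.06 for Rn18s. Without MSCATV-Exo replicate 2 they were 0.39, 0.38 and 0.46. Most of the difference in the rRNA rows thus rested on a single library, in which fewer rows had any count (34813, against 36170 to 37318 in the other 3) and the scaling factor was the lowest (0.924, against 1.01 to 1.04). The part of these properties in its rRNA level was not tested.

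LOC257642 had 40171 and 45217 against 55321 and 52728 CPM, with means of 42694 ± 3567 against 54024 ± 1834 (SD, n = 2). Its log2 fold change was 0.34 ± 0.05 (SE), or 1.27-fold, with an SE of 0.10 in DESeq2. The difference of the means was larger than the SD of either group. With a library left out the edgeR log2 fold change ranged from 0.25, without MSC-Exo replicate 1, to 0.43, without MSC-Exo replicate 2. No single library carried this difference.

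With total counts in place of the scaling factors, the median over all genes went down from -0.01 to -0.11 on the log2 scale. The members moved with it, to 0.12 for Rn45s, 0.12 for Rn28s, 0.16 for Rn18s and 0.24 for LOC257642, and kept about the same distance to that median. As scaled CPM, all 4 rows had their 2 highest levels in the MSCATV-Exo libraries. This held for 16.1% of the 33480 genes tested, for 30.6% of the 602 genes with a mean of at least 20 RPKM, and for 35.2% of the 145 genes with a mean of at least 1000 counts. As a share of gene counts it held for the same 4 rows and for 12.8% of all genes tested. Nothing is read from the 4 of 4, because the rows were chosen with this comparison known and 3 of them share reads. As a share of summed RPKM the groups overlapped for Rn45s, Rn28s and Rn18s and did not overlap for LOC257642. The edgeR quasi-likelihood test on all 4 libraries called 0 of the 33480 genes (0%) at an adjusted p under 0.05, with 1237 at an unadjusted p under 0.05, and DESeq2 called 95 of 39987 (0.238%), none of them one of these 4 rows. With no filter on low counts edgeR called 8 of 39987 genes (0.02%), among them Rn45s, Rn28s and LOC257642. Leaving out MSC-Exo replicate 1 gave 1 call (0.00281%) and leaving out MSC-Exo replicate 2 gave 2 (0.0056%). The corresponding counts were 27 (0.0753%) when MSCATV-Exo replicate 1 was dropped and 179 (0.502%) when its replicate 2 was dropped. LOC257642 was among the called genes in each of these 4 fits, and the 3 rRNA rows in the last of them alone.

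**Figure D2:**
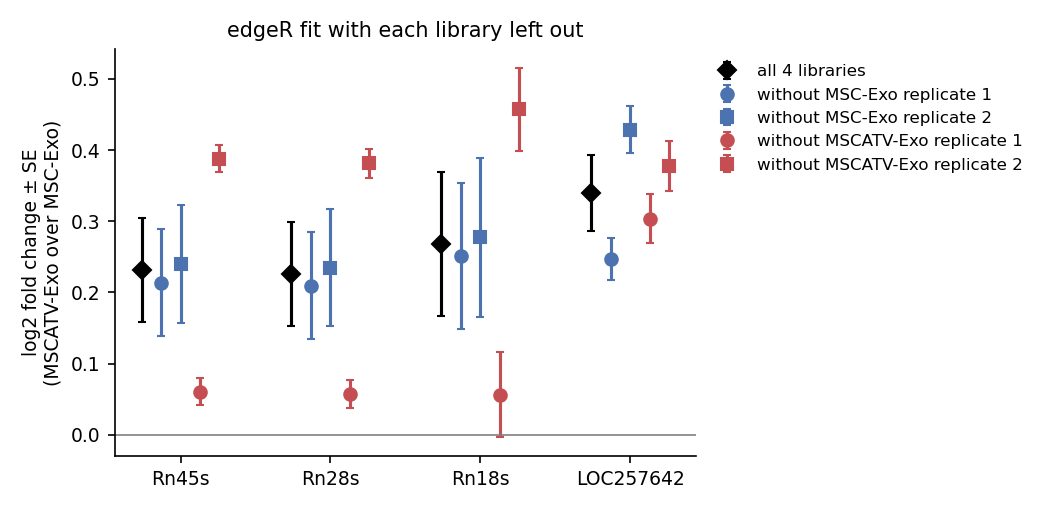
Log2 fold change of each row, MSCATV-Exo over MSC-Exo, from the edgeR fit on all 4 libraries (black) and with each library left out (colours and shapes). Bars give the SE derived from the F statistic of the fit. For Rn45s, Rn28s and Rn18s the value without MSCATV-Exo replicate 1 lies at 0.06, and for LOC257642 all 5 values lie between 0.25 and 0.43.

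The rows outside rRNA and LOC257642 summed to nearly the same count in every library, namely 3363332 and 3349396 against 3369518 and 3435847. The larger gene total of MSCATV-Exo replicate 1 therefore lay in rRNA and LOC257642. With the rows inside Rn45s left out, Rn45s and LOC257642 together made up 24.8% and 25.2% of the counts in MSC-Exo. In MSCATV-Exo they made up 30.0% and 26.4%. Whether some reads were counted in both Rn45s and LOC257642 was not tested, and any such read would enter this sum more than once. Both MSCATV-Exo libraries were above both MSC-Exo libraries on this measure, replicate 2 by little.

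**Figure D3:**
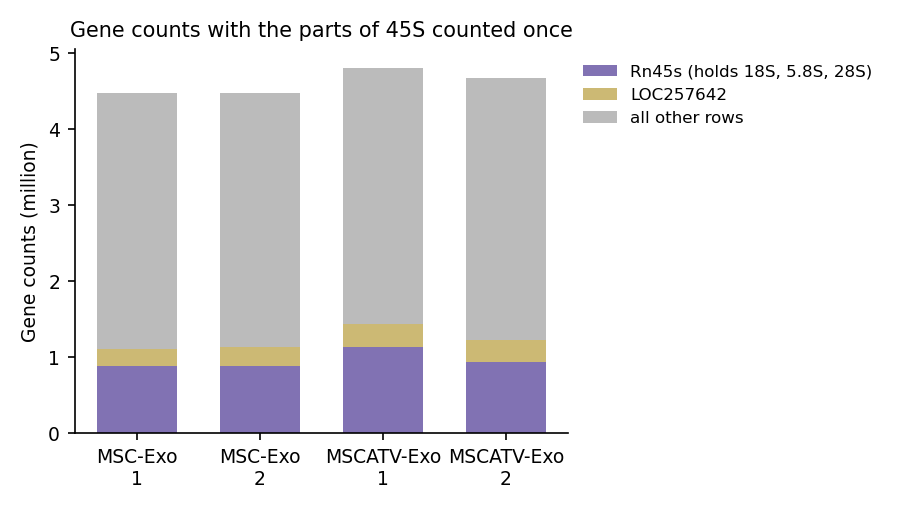
Gene counts per library (y axis from 0, in units of 1e6) with the reads of 18S, 5.8S and 28S counted once, as part of Rn45s, split into Rn45s, LOC257642 and all other rows. The grey part is nearly level over the 4 libraries, and MSCATV-Exo replicate 1 has the largest Rn45s part (1138047 counts).

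The balance of the 2 large rRNAs was examined next, because a ratio inside a library is not moved by its total. Per length, 18S stood at 0.224 of 28S in both MSC-Exo libraries, at 0.236 in MSCATV-Exo replicate 1 and at 0.224 in MSCATV-Exo replicate 2. The level of 28S was thus 4.47 times that of 18S in 3 libraries and 4.24 times in MSCATV-Exo replicate 1, although both RNAs are present in equal copy in a ribosome. As for the shares, 1 library stood apart from 3 with nearly the same value. Of the counts in 18S and 28S together, 18S made up 8.41% in it (95% exact Clopper-Pearson interval 8.36% to 8.46%) and 8.01% to 8.02% in the others, whose intervals reached no higher than 8.07%. These intervals describe counting error alone: PCR copies were not marked, so reads are not independent molecules.

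The difference between the groups in the log2 ratio of 18S to 28S was 0.04, and the groups overlapped. Without MSCATV-Exo replicate 1 the difference was -0.00137, and without replicate 2 it was 0.08. No p is given for this or the other ratios, since the rows were chosen from this comparison and an exact permutation of 2 libraries against 2 cannot give a p below 0.333.

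**Figure D4:**
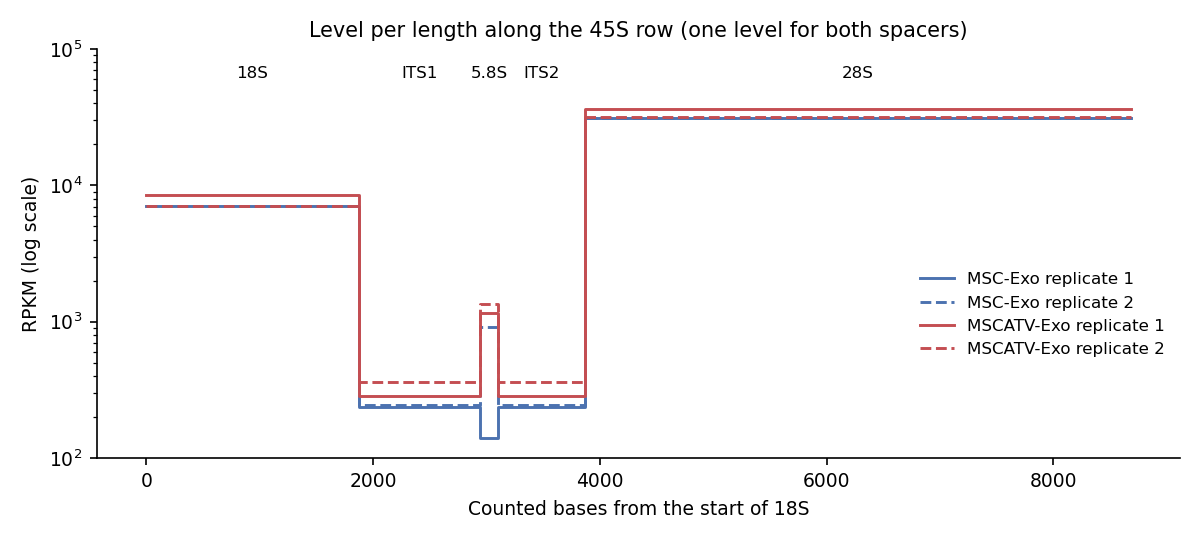
Level per length (RPKM, log scale) along the counted bases of the Rn45s row, from the start of 18S to the end of 28S, for each library; ITS1 and ITS2 share 1 level because the table gives only their sum. The level is 7006 to 8565 in 18S, 235 to 362 in the spacers and 31298 to 36320 in 28S, and the 5.8S level of MSC-Exo replicate 1 lies far below that of the other libraries.

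The spacers are cut out of the precursor and degraded. Spacer counts here are a difference between rows, and whether they come from RNA that still holds spacer sequence was not tested. The counts of Rn45s in none of the 3 mature rows numbered 2321 and 2404 against 3140 and 3737. They made up 0.263% and 0.273% of the Rn45s counts against 0.276% and 0.400%. Almost all reads of the row named 45S pre-rRNA therefore fell in mature rRNA, and the level of that row follows 28S.

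Per length the spacers stood at 235 and 243 against 286 and 362 RPKM. The 28S level was 134, 129 and 127 times that of the spacers in the first 3 libraries, and 87.8 times in MSCATV-Exo replicate 2. As a share of Rn45s counts the spacers were higher in both MSCATV-Exo libraries, but MSCATV-Exo replicate 1 exceeded MSC-Exo replicate 2 by less than the counting intervals (0.266% to 0.286% against 0.263% to 0.285%). The group means of the log2 share differed by 0.31, with 0.04 without MSCATV-Exo replicate 2 and 0.58 without replicate 1. Here the library set apart was MSCATV-Exo replicate 2, and not the one with the most rRNA.

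Rn5-8s, the row of 5.8S rRNA, which pairs with 28S rRNA in the large subunit, had 116 and 759 against 1065 and 1180 counts. MSC-Exo replicate 1 was far below the other 3 libraries. Per length 5.8S stood at 0.442% of 28S there, at 2.90% in MSC-Exo replicate 2 and at 3.16% and 4.25% in the MSCATV-Exo libraries. In MSC-Exo replicate 1 the spacers even exceeded 5.8S per length, by 1.69 times, whereas they stood at 0.249 to 0.268 of it elsewhere. The row is 156 bases long, shorter than the 200 bases or so to which the RNA was fragmented per the labels' protocol; the part of this in its counts was not tested.

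The log2 fold change of Rn5-8s was 1.35 ± 0.60 (SE; edgeR adjusted p = 1.00), with 0.54 without MSC-Exo replicate 1 and 3.28 without MSC-Exo replicate 2. The fit without MSC-Exo replicate 2 passed the edgeR threshold (adjusted p = 0.0163), as did those without MSCATV-Exo replicate 1 (1.39, adjusted p = 0.0463) and replicate 2 (1.29, adjusted p = 0.0195). In each of these fits 1 group held a lone library, taken to vary like the other group. The log2 ratio of 5.8S to 28S differed between the groups by 1.70, and by 0.34 without MSC-Exo replicate 1.

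**Figure D5:**
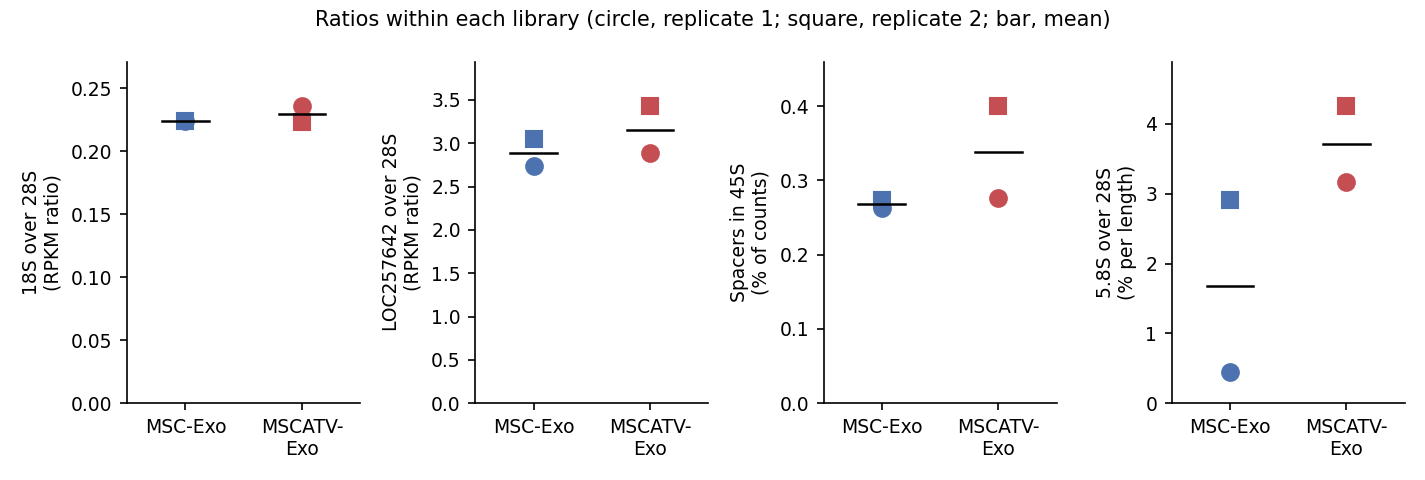
Within-library ratios for MSC-Exo (blue) and MSCATV-Exo (red), each y axis from 0: 18S over 28S as RPKM, LOC257642 over 28S as RPKM, spacer counts as percent of Rn45s counts, and 5.8S as percent of 28S per length. Circles are replicate 1, squares replicate 2 and bars group means; the groups overlap in the first 2 panels, and in the others 1 library lies far from the rest (0.400% in the spacer panel, 0.442% in the 5.8S panel).

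LOC257642 was then set against 28S. Its level per length was 2.73 and 3.05 times that of 28S in the MSC-Exo pair against 2.88 and 3.43 times in the MSCATV-Exo pair. The groups overlapped, since MSCATV-Exo replicate 1 fell between the 2 MSC-Exo libraries. The difference between the groups in the log2 ratio was 0.12, and -0.000215 without MSCATV-Exo replicate 2. In counts LOC257642 equalled 27.7% and 30.9% against 29.3% and 34.8% of 28S. So the separation of the groups seen in its share of the library was not seen relative to 28S.

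The annotated rows nearest to LOC257642 had far fewer counts than it, and reads between annotated rows are not given. The nearest rows on chromosome 6 were LOC108351328, a pseudogene of reticulocalbin-1 at a distance of 48801 bases with 0 to 47 counts in a library, the pseudogene LOC100912494 at 128109 bases with 40 to 97 counts, and the lncRNA LOC103692584 at 149675 bases with 245 to 315 counts. The nearest rows outside Rn45s likewise had far fewer counts than it. Next to Rn45s lay the misc_RNA ENSRNOG00000054197 at 9515 bases with at most 1 count, the lncRNA LOC102554740 at 9780 bases with 17 to 53 counts, and the misc_RNA ENSRNOG00000054685 at 23442 bases with at most 7 counts. The sequence of LOC257642 was not compared with that of rRNA, so whether its reads could also align to rRNA was not tested. How reads with several alignments were assigned is not given in the sources used here.

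The table also holds 5S and mitochondrial rRNA. Rn5s, the row of 5S rRNA on chromosome 12 at 1510398 to 1510517, had 637 and 529 against 518 and 639 counts. The groups overlapped and the log2 fold change was -0.02 ± 0.24 (SE; edgeR adjusted p = 1.00), running from -0.15 to 0.11 with a library left out. MSCATV-Exo replicate 1, the library with the most 45S, had the fewest 5S counts. Per length 5S stood at 8.47% to 14.1% of 18S, and like 5.8S it is shorter than the fragments. The mitochondrial rRNA rows were near the lower limit of the table, with 5 to 11 counts for Rnr1, the small rRNA, and 10 to 27 for Rnr2, the large one. Their groups overlapped, and no difference is read from these counts.

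Of the 5 rows with the most counts, 4 were the members. The other was ENSRNOG00000053367, a pseudogene on chromosome 6, with 73507 and 81019 against 76849 and 78062 counts. Its scaled level was 13933 ± 1094 CPM against 13911 ± 104 (SD, n = 2), and the groups overlapped. Its counts were near those of Rn18s, but per length it stood lower, at 2313 to 2707 RPKM, and MSCATV-Exo replicate 1 was not its highest library by counts.

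Likeness to each member was measured over the 4 libraries as the root mean square difference of centred log2 CPM, among the 601 other tested genes with a mean of at least 20 RPKM. For Rn45s the nearest was Rn28s (0.00290), followed by Rps14 (0.0209), which encodes a protein of the small ribosomal subunit, and Rn18s (0.0305). Rps14 had 309 and 319 against 403 and 327 counts. For Rn28s the nearest were Rn45s, Rps14 (0.0208) and Rn18s (0.0331). For Rn18s the order was Rpl38 (0.0148), a large-subunit protein gene with 120 and 120 against 165 and 130 counts, then Rn45s and Rn28s.

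None of the rRNA rows was among the 3 nearest to LOC257642. These were Pfn1 (0.00733), which encodes the actin-binding protein profilin 1, Kif1c (0.0319), which encodes a kinesin motor, and Akap12 (0.0366), which encodes a scaffold of protein kinase A. Pfn1 had 613 and 673 against 828 and 803 counts. With 4 libraries such likeness is a description of these libraries alone. The genes named were picked as the closest of 601 compared. The measure takes no account of counting error, which weighs more at counts like those of Rpl38 than for the members.

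The genes that make and process rRNA formed a list of 96 symbols, of which 92 were found and 89 passed the count filter. Of the 89, 49 were higher (55.1%, against 49.4% of all genes tested) and 40 lower in MSCATV-Exo, and 0 were called by edgeR, with 4 at an unadjusted p under 0.05 (4.49%, against 3.69% of all genes tested). The median log2 fold change of the list was 0.10, against -0.01 for all genes, and with total counts it was 0.00239, against -0.11 for all genes. In 16 members both MSCATV-Exo libraries lay above both MSC-Exo libraries and in 14 below, or 18% and 15.7%, where all tested genes had 16.1% and 17.4%. DESeq2 called 1 of the 91 members it fitted, Rrs1, where it called 0.238% of all rows it fitted.

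Among the abundant members Ncl, which encodes the nucleolar protein nucleolin, had 2271 and 2936 against 3560 and 3469 counts (log2 fold change 0.43 ± 0.17, SE). Its groups did not overlap, and the value was 0.23 without MSC-Exo replicate 1. Ptrf, named for the release of RNA polymerase I transcripts and known also as a coat protein of caveolae, had 1165 and 946 against 1324 and 1081 counts (0.19 ± 0.22, SE), and its groups overlapped, with 0.01 without MSCATV-Exo replicate 1. Npm1, which encodes the nucleolar chaperone nucleophosmin, had 626 and 708 against 527 and 980 counts (0.16 ± 0.29, SE), with -0.32 without MSCATV-Exo replicate 2. Mdn1, which encodes an ATPase of large-subunit maturation, stood at 0.25 ± 0.27, and Tsr1, a factor of small-subunit maturation, at 0.33 ± 0.31 (log2 fold changes with SE). Without MSCATV-Exo replicate 2 Mdn1 stood at 0.09, and without MSC-Exo replicate 1 Tsr1 stood at 0.14. Each of these 5 genes moved by over 1.5 times in at least 1 fit with a library left out.

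Ubtf, which encodes the factor that binds the rDNA promoter for RNA polymerase I, had 207 and 190 against 268 and 393 counts (log2 fold change 0.73 ± 0.31, SE). Xrn2, which encodes a nuclear exoribonuclease that trims pre-rRNA and degrades spacers, had 21 and 38 against 73 and 125 counts (1.73 ± 0.63, SE). Both had higher counts in each MSCATV-Exo library, and without MSCATV-Exo replicate 2 their values were 0.45 and 1.32. In the other direction went Rrs1, a factor of large-subunit assembly, with 116 and 118 against 32 and 30 counts (-1.92 ± 0.53, SE). Its adjusted p was 1.00 with edgeR and 0.0351 with DESeq2, and its fold change kept between -1.98 and -1.85 whichever library was omitted. For each of the 8 genes named from this list the edgeR adjusted p was 1.00.

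The authors' deposited table gives Rn45s a log2 ratio of mean RPKM of 0.12, Rn28s 0.12, Rn18s 0.16 and LOC257642 0.24. For each of the 4 the authors' deposited table lists a p-value of 4.44e-16 and a q-value of 1.92e-13. Of the 38021 genes in the authors' deposited table, 13053 (34.3%) have a q-value under 0.05. The test behind these values is not given in the sources used here, and its p-values did not follow the spread between libraries described above, since Rn28s differed more within MSCATV-Exo than between the groups.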

How the data were processed

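Exosome RNA of 2 MSC-Exo and 2 MSCATV-Exo samples was sequenced. The authors deposited whole-number read counts per gene and per non-coding transcript, and RPKM values beside them. Per the submitters' processing notes TopHat2 and the rat build rn6 (Rnor_6.0) were used; the read counter, annotation and versions are not given in the sources used here. The deposited RPKM of the gene table were recomputed from counts, lengths and summed gene counts to within 0.391 RPKM. The ncRNA table repeats the rRNA counts. The authors deposited a comparison table too, with group mean RPKM, a log2 ratio without a pseudocount, a p-value and a q-value.

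All rows were fitted at once with the quasi-likelihood model of edgeR 4.0.16 (R 4.3.3), after filterByExpr and with TMM scaling factors. Each edgeR SE is the absolute log2 fold change divided by the square root of the quasi-likelihood F statistic. P-values are two-sided and adjusted over all 33480 tested genes after Benjamini and Hochberg, with a threshold of 0.05; DESeq2 1.42.0 and limma 3.58.1 were alternatives. The fit was tested on simulated data with changes far larger than those of these 4 rows. That run does not show how the fit treats differences of their size. Counting intervals were computed with SciPy 1.17.1. Ratios are described without a p. Spacer counts are Rn45s minus Rn18s, Rn5-8s and Rn28s. Reads inside Rn45s are in the library total more than once.

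The members and lists were chosen with earlier results of these data known. Named were the members, rRNA rows with a mean of at least 100 counts, the 5 rows with the most counts, 3 neighbours and the 3 most alike genes of each member, and from the rRNA synthesis list the 6 with the most counts and the 4 with the smallest p. Rnr1 and Rnr2, under 100 counts, were named after their values were seen. Gene names and positions are those of the deposited tables. No rat sequence was used here, so none is shown.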

Additional observations from a re-analysis of the deposited data

How the results depend on the processing

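Mean shares of the 4 libraries, in the order Rn45s, Rn18s, Rn28s, LOC257642, were 17.2%, 1.39%, 15.7% and 4.82% of gene counts. Relative to counts without rRNA rows and LOC257642 they were 28.4%, 2.30%, 26.0% and 7.95%. Of the totals implied by the ncRNA RPKM they were 10.3%, 0.837%, 9.47% and 2.90%, and of summed RPKM 4.62%, 1.73%, 7.63% and 23.0%. With the parts of 45S counted once, an alternative added after seeing the data, they were 20.8%, 1.68%, 19.0% and 5.82%.

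The log2 fold change of LOC257642 (0.34) was 0.24 with total counts alone and 0.24 with limma on RPKM at a pseudocount of 1 or of 0.1. The limma SE was 0.38 at a pseudocount of 1 and 3.18 at 0.1, larger than the fold change itself. With a library left out the edgeR log2 fold change of LOC257642 ran from 0.25 to 0.43. The range was 0.0605 to 0.388 for Rn45s, 0.0562 to 0.457 for Rn18s and 0.0576 to 0.381 for Rn28s. No setting turned the direction of these 4 rows. The median of the rRNA synthesis list (0.10) was 0.00239 with total counts, 0.00423 with limma at a pseudocount of 1 and -0.000317 at 0.1, while the median of all genes (-0.01) was -0.11, -0.11 and -0.15 in these settings, so the list kept above it. Signs turned with a library left out for Rn5s (-0.15 to 0.11), Npm1 (-0.32 to 0.53), the log2 ratio of 18S to 28S (-0.00137 to 0.0760) and that of LOC257642 to 28S (-0.000215 to 0.25).

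The number of genes called was 0 with edgeR, 95 with DESeq2, 8 with no filter on low counts (Rn45s, Rn28s and LOC257642 among them) and 1 to 179 with a library left out. The labels do not say whether equal replicate numbers mark a shared culture. Over all tested genes together, deviations of libraries with equal numbers had a correlation of -0.000516. That single value includes genes with low counts and cannot tell whether the libraries are paired. With a replicate block 4 genes (0.0119%) were called. Where 1 library was left out, the lone library of a group was taken to vary like the other group. Because these 4 rows were chosen from this comparison, whether they were called is not given.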

Other observations

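Rmrp, the RNA of RNase MRP, an enzyme that cuts pre-rRNA within ITS1, was looked at after its values were seen. It had 2767 and 3474 counts for MSC-Exo against 4557 and 4078 for MSCATV-Exo, and per length 2012 to 2982 RPKM, which places it between rank 7 and rank 9 of all rows. Its scaled level was 563 ± 95.7 CPM against 776 ± 75.2 (SD, n = 2), a log2 fold change of 0.46 ± 0.17 (SE). The groups did not overlap. The adjusted p was 1.00 with edgeR and 0.109 with DESeq2, and the log2 fold change ran from 0.29 to 0.65 with a library left out.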
